A study of Mus musculus with 24 samples.

Results

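Neurotrophins and the ligands of the GDNF family are secreted proteins that keep neurons alive and tune their synapses. Bdnf and Ntf3 encode neurotrophins that act mainly on the receptor tyrosine kinases TrkB and TrkC, encoded by Ntrk2 and Ntrk3, and Ngfr encodes p75, a receptor that all neurotrophins bind. GDNF binds a co-receptor, encoded by Gfra1, and the pair signals through the receptor tyrosine kinase Ret. In the striatum, much of the Bdnf protein is known to arrive in axons from the cortex, whereas Gdnf is known to be made by striatal neurons and to act on the dopamine axons that reach them.

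The 8 genes described here, Bdnf, Ntf3, Ntrk2, Ntrk3, Ngfr, Gdnf, Gfra1 and Ret, were listed by name and make up 8 of the 52636 genes counted. They were measured by RNA-seq in the nucleus accumbens (NAc), a ventral striatal region of the reward system, of 24 C57BL/6 mice (C57BL/6J in the study's methods) killed at P50. The groups were 6 control (Con) females, 6 Con males, 6 females and 6 males that had gone through MSUS, which is maternal separation from postnatal day 1 to day 14 combined with unpredictable stress of the dam. The labels give the separation as 2 h per day, and the study's methods give another duration. In those methods whole litters were assigned to Con or MSUS. The labels do not give the litter of an animal, so littermates could not be accounted for and the tests treat animals as independent. No animal carried a transgene or received a drug. Each library came from the bilateral NAc punches of 1 animal, so levels over the cell types of the punch are averaged, and fewer cells of a type cannot be told apart from less RNA per cell. Animals are named below by group and replicate number, for example Con female 3.

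Libraries held 39923666 to 70575745 counted sense read pairs. Xist separated the sexes as labelled, with 57292 to 82063 normalized counts in females and at most 20.7 in males. Markers of medium spiny neurons, the main neurons of the NAc, summed to between 83976 and 241515 normalized counts, with none of the 9 at 0, and were lowest in Con female 3 and next lowest in MSUS male 6. Markers of cortical excitatory neurons, which the NAc does not contain, ranged from 6821 to 88348 summed normalized counts between libraries, and none of those 9 was at 0 either. The share of read pairs assigned to no gene was 31.0% to 34.8% in Con females and 36.3% to 43.9% in MSUS females, without overlap, against 34.7% to 40.6% in Con males and 32.2% to 44.7% in MSUS males. Both measures moved with several of the results that follow and are given beside them.

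Per kilobase of exon, the 8 genes fell into 3 levels. Over all 24 animals Ntrk2 was the most abundant, with 37.6 ± 2.96 CPM per kilobase (SD, n = 24), where CPM is the count scaled to the effective library size, and the receptor genes Gfra1 and Ntrk3 followed with 17.6 ± 2.16 and 14.5 ± 1.55. The ranges of Gfra1 and Ntrk3 overlapped, and that of Ntrk2 lay above both. Gdnf, Ret, Bdnf and Ngfr formed a second level of 0.938 ± 0.260, 0.916 ± 0.321, 0.901 ± 1.03 and 0.850 ± 1.31 CPM per kilobase, and all neighbours in that order overlapped. Ntf3 was lowest with 0.0800 ± 0.0360 CPM per kilobase and 2 to 14 read pairs per library. In MSUS females and in Con males Bdnf stood next to Ntf3, with 0.537 ± 0.665 and 0.627 ± 0.627 CPM per kilobase (SD, n = 6 each). The ranges of Bdnf and Ntf3 overlapped in both groups. Exon length was summed over all annotated isoforms, so that genes with truncated isoforms, such as those known for Ntrk2 and Ntrk3, are described by a single average level.

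The genes also differed in their spread between animals. Within groups, the SD of log2 CPM was 1.56 for Bdnf, and 99.7% of the 21500 genes tested in all animals had a smaller one. It was 0.98 for Ngfr, larger than that of 98.7% of genes, 0.55 for Ntf3, 0.49 for Gdnf and 0.41 for Ret. The widely expressed receptor genes were steady by comparison. The SD was 0.20 for Gfra1, 0.15 for Ntrk3 and 0.11 for Ntrk2, against a median of 0.19 over all genes.

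**Figure D1:**
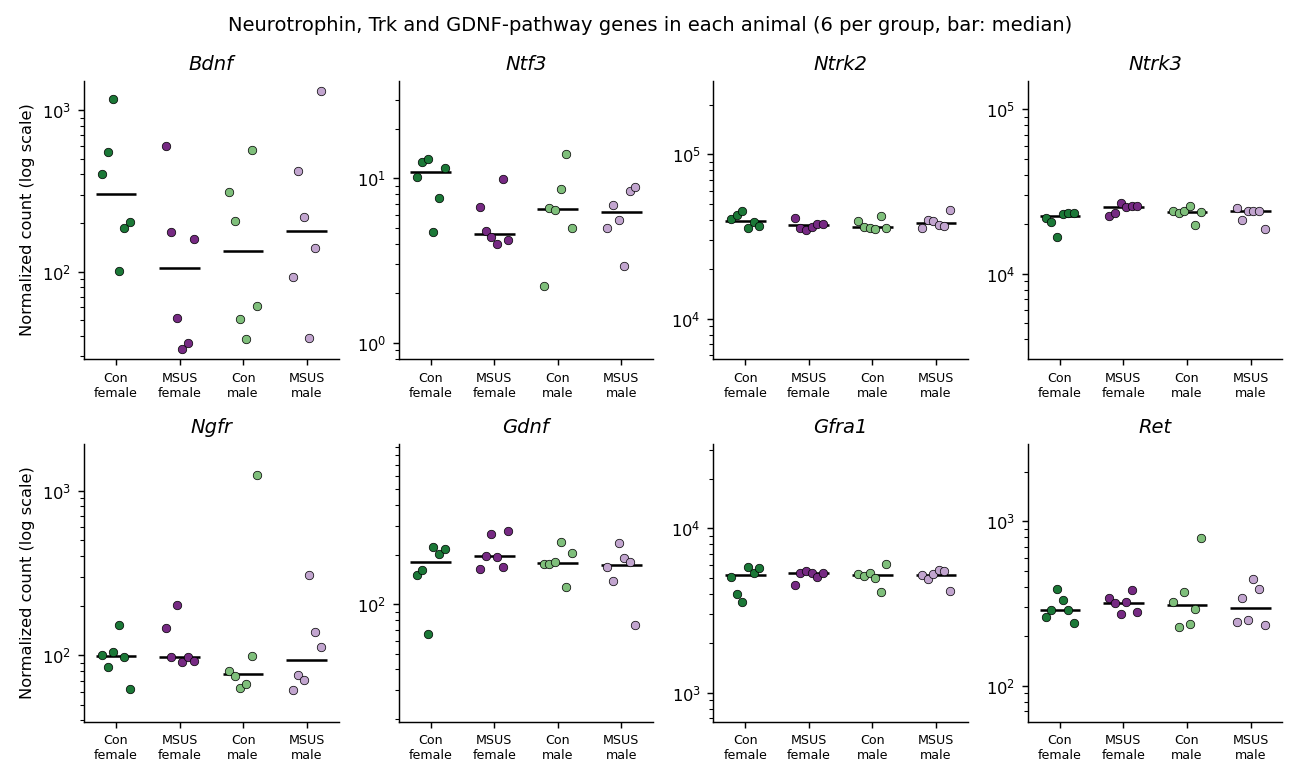
Normalized counts (log scale, with at least the same span in every panel and the axis limits of each gene its own) of the 8 genes in each of 24 animals, with 6 animals per group in order of replicate number and a bar at the median. Bdnf runs from 33.1 to 1317 and overlaps in all groups, Ntrk2 and Ntrk3 vary little, and 1 Con male stands apart in Ngfr at 1243 and in Ret at 788.6.

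Of the ligands, Bdnf (chr2:109674700-109727007, plus strand, GRCm38, as for all positions here) encodes brain-derived neurotrophic factor, a neurotrophin released in response to activity. Its normalized counts (read pairs divided by the size factor of the library) had a lowest value of 101.3, a median of 300.7 and a highest of 1176 among Con females. Among MSUS females the lowest was 33.1, the median 105.2 and the highest 603.2. The groups overlapped, and 1 of 6 MSUS females, replicate 1, lay above the median of the Con females. The log2 fold change of MSUS over Con was -1.29 ± 0.79 (SE), which did not pass the threshold of an adjusted p under 0.10 (edgeR, adjusted p = 0.279). Without MSUS female 1 the fold change was -2.25 and passed (edgeR, adjusted p = 0.0559), and without Con female 3 it was -0.70. The difference had the same sign among libraries 1 to 12 and among libraries 13 to 24, the 2 sets of library numbers, at -2.07 and -1.19 in log2 CPM with 3 animals a group in each.

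In males Bdnf had a lowest value of 38.3, a median of 133.7 and a highest of 566.1 normalized counts in Con animals. In MSUS males the values were 38.9, 178.5 and 1317. The male log2 fold change was 0.85 ± 0.87 (edgeR, adjusted p = 1.00) and turned to -0.16 without MSUS male 6, the animal with the highest Bdnf count of all. Without Con male 5 it was 1.47. With all animals the difference was -0.56 in libraries 1 to 12 and 1.80 in libraries 13 to 24, in log2 CPM. The fitted MSUS effect in females minus that in males was -2.15 ± 1.23 (edgeR, adjusted p = 0.331), -1.13 without MSUS male 6 and -3.10 without MSUS female 1, and it did not pass in any of these fits, so that the effects in the sexes were not shown to differ.

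Bdnf is transcribed from several alternative promoters, and the counts sum all of them, so a change in the use of one start cannot be seen here. RefSeq lists 7 starts for it in GRCm38.p6, all on the plus strand of chromosome 2. The 250 bases before the starts were searched on both strands for the CRE, TGACGTCA, and its variant TCACGTCA, the sites through which cyclic AMP and calcium are known to drive transcription. The windows were also searched for TGANTCA, a looser form of the AP-1 site TGA(C/G)TCA bound by Fos and Jun proteins, with any base in the middle. For windows with a match, the 250 bases before the start are shown, with the match in capitals. They are given because activity-driven genes are compared with Bdnf further on.

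Bdnf, start 3 of 7, chr2:109692186-109692435, plus strand: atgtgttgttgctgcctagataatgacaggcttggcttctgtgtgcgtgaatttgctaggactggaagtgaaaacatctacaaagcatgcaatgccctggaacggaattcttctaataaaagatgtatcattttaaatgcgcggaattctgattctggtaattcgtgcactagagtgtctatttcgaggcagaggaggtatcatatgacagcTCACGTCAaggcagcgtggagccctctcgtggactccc

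Bdnf, start 2 of 7, chr2:109676782-109677031, plus strand: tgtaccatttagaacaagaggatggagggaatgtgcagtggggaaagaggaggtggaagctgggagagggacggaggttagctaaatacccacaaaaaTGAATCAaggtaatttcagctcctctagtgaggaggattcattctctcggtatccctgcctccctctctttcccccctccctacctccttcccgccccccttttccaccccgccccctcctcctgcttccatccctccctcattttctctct

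The first window held TCACGTCA at bases -38 to -31 from the start, the known calcium-responsive element of the promoter before exon IV. Of 32851 promoter windows of 300 bases in the RefSeq table, 0.441% held this variant and 1.79% the full CRE. The other window held TGAATCA at bases -152 to -146, with A in the middle, so it matched the looser form only. Of all windows, 7.81% held TGANTCA with any middle base. Several windows of Bdnf were searched, so a match in any of them is more likely than these shares per window. None of the 3 motifs was found in the windows listed for Ntf3, Ntrk2, Ngfr, Gdnf and Gfra1. These matches are a description of the letters, and no binding was measured.

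Ntf3 (chr6:126101412-126166910, minus strand) encodes neurotrophin-3, the preferred ligand of TrkC. Its normalized counts ran from 4.73 to 13.1 in Con females, with a median of 10.9, and from 4.01 to 9.92 in MSUS females, with a median of 4.59. In males it ran from 2.21 to 14.0 in the Con group, with a median of 6.51, and from 2.92 to 8.88 in the MSUS group, with a median of 6.21. The groups overlapped in both sexes. Ntf3 was below the count filter in females and in males and was tested only in the fit of both sexes together. There the difference of the MSUS effects, females minus males, was -0.62 ± 0.49 on the log2 scale (edgeR, adjusted p = 0.474). Without a filter the female log2 fold change was -0.81 ± 0.33 (edgeR, adjusted p = 0.172). It entered the female test and passed, with log2 fold changes of -0.95, -0.87 and -0.86, when Con female 4, Con female 5 or MSUS female 1 was left out (edgeR, adjusted p = 0.0404, 0.0890 and 0.0949). It also entered that test without MSUS female 2, 3, 4 or 6 and did not pass, with log2 fold changes of -0.76 to -0.71 (edgeR, adjusted p = 0.157 to 0.173). It did not enter without Con female 1, 2, 3 or 6, with 10 to 13 read pairs, or without MSUS female 5, with 9. The filter was thus met mainly by Con females, the group with the higher counts. The passes with 1 animal left out therefore do not count as support for a difference. At 2 to 14 read pairs per library, counting error alone limits these values.

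Gdnf (chr15:7810846-7837575, plus strand), the ligand of Gfra1 and Ret, had a lowest value of 65.6, a median of 180.8 and a highest of 222.4 normalized counts among Con females. Among MSUS females the values were 163.2, 195.2 and 276.8. The log2 fold change was 0.32 ± 0.25 (edgeR, adjusted p = 0.389). In males the medians were 176.9 (Con) and 173.8 (MSUS), with a log2 fold change of -0.16 ± 0.22 (edgeR, adjusted p = 1.00). The lowest counts of all were those of Con female 3, at 65.6, and MSUS male 6, at 74.6, which were also the libraries with the most Bdnf. Without MSUS male 6 the male value was -0.011, and without Con female 3 the female value was 0.15.

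Of the receptors, Ntrk3 was the only gene of the 8 to pass the threshold, and it did so in females. It encodes TrkC and lies at chr7:78175959-78738012, minus strand. Its normalized counts were 16649 at lowest, 22421 at the median and 23330 at highest in Con females, against 22388, 25446 and 26912 in MSUS females. The groups overlapped, with 5 of 6 MSUS females above the median of the Con females. The log2 fold change was 0.22 ± 0.08 (edgeR, adjusted p = 0.0683), an increase present both in libraries 1 to 12, at 0.30, and in libraries 13 to 24, at 0.15 in log2 CPM with 3 animals a group. In this comparison 25.1% of the 20571 genes tested passed, against 1 of 7 of the genes described here, so a pass was no more frequent among them than among all genes.

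The call for Ntrk3 was not stable. Its adjusted p was between 0.0476 and 0.150 with 1 animal left out, and it missed the threshold without Con female 2 or without MSUS female 3, 5 or 6, where the log2 fold changes were 0.21, 0.20, 0.21 and 0.21. With the share of unassigned read pairs as a covariate the log2 fold change was 0.25 ± 0.16 (edgeR, adjusted p = 0.760), and 0 of all 20571 genes passed. With the level of the cortical markers as a covariate it was 0.07 ± 0.07 (edgeR, adjusted p = 0.611), and 1699 of 20571 genes passed. Those markers were lower at the median in MSUS than in Con females, so their level and MSUS cannot be fully told apart in that fit.

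In males Ntrk3 ran from 19622 to 25608 normalized counts in Con and from 18552 to 24895 in MSUS animals, with a log2 fold change of -0.04 ± 0.08 (edgeR, adjusted p = 1.00). The MSUS effect in females minus that in males was 0.25 ± 0.11 (edgeR, unadjusted p = 0.0357, adjusted p = 0.247). The effects of MSUS on Ntrk3 were therefore not shown to differ between the sexes.

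Ntrk2 (chr13:58806569-59133970, plus strand), which encodes TrkB, had the smallest ratio of highest to lowest value of the 8 genes, 1.32, with 34727 to 45691 normalized counts over 24 animals. The medians of the females were 39496 in the Con and 36983 in the MSUS group, and those of the males 35899 and 38079. The log2 fold change of MSUS over Con was -0.10 ± 0.06 in females (edgeR, adjusted p = 0.295) and 0.06 ± 0.07 in males (edgeR, adjusted p = 1.00). The highest counts were those of MSUS male 6, at 45691, and Con female 3, at 45411.

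Gfra1 (chr19:58235604-58455909, minus strand) encodes the co-receptor that presents GDNF to Ret. Its normalized counts ran from 3582 to 6099, and the 4 group medians lay between 5209 and 5338. The log2 fold change was 0.08 ± 0.11 in females (edgeR, adjusted p = 0.624) and -0.02 ± 0.09 in males (edgeR, adjusted p = 1.00). Con female 3, at 3582, was lowest.

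In Ngfr and Ret single males stood apart. Ngfr (chr11:95568818-95587735, minus strand), the p75 receptor gene and a known marker of cholinergic neurons of the basal forebrain, had a lowest value of 62.6, a median of 77.1 and a highest of 1243 normalized counts in Con males. Without Con male 6, the animal with 1243, the highest was 98.0. In MSUS males the values were 60.9, 93.9 and 304.5, the last in MSUS male 4. The male log2 fold change of -1.10 ± 0.85 (edgeR, adjusted p = 1.00) turned to 0.73 without Con male 6. In females Ngfr ran from 62.5 to 152.4 in Con and from 90.2 to 202.4 in MSUS animals, with a log2 fold change of 0.28 ± 0.24 (edgeR, adjusted p = 0.447).

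Ret (chr6:118151745-118197718, minus strand), the signalling receptor of the GDNF family, had a lowest value of 225.9, a median of 308.1 and a highest of 788.6 normalized counts in Con males. The highest was again Con male 6, and the highest without it was 369.4. In MSUS males the values were 232.8, 296.6 and 447.5, the last again in MSUS male 4. The male log2 fold change was -0.24 ± 0.30 (edgeR, adjusted p = 1.00) and 0.13 without Con male 6. The female log2 fold change was 0.10 ± 0.12 (edgeR, adjusted p = 0.587).

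Con male 6 and MSUS male 4 also had the highest sums of cholinergic neuron markers. The 5 cholinergic markers summed to 5446 normalized counts in Con male 6 and 4579 in MSUS male 4, against a median of 3214 over all animals. Lhx8, a transcription factor of forebrain cholinergic neurons, was at 756.9 in Con male 6 and 781.2 in MSUS male 4, the highest values of 24. Chat and Slc18a3, the genes of acetylcholine synthesis and vesicular transport, were highest in the same animals, at 1261 and 649.1 in Con male 6 and 986.5 and 596.4 in MSUS male 4. Slc5a7 was at 2732 and 2083 and Gbx2 at 46.5 and 132.3 in these animals, where MSUS female 3 had 2326 for Slc5a7 and the median of all animals was 62.1 for Gbx2. Lhx6, a marker of GABA interneurons, was also highest in both, at 2254 and 2431. The 6 markers of parvalbumin and somatostatin interneurons, Lhx6 among them, did not sum highest there. Their sums were 18808 in Con male 6 and 20509 in MSUS male 4, against 21432 in Con male 5. The part of these cells in the Ngfr and Ret values was not tested.

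**Figure D2:**
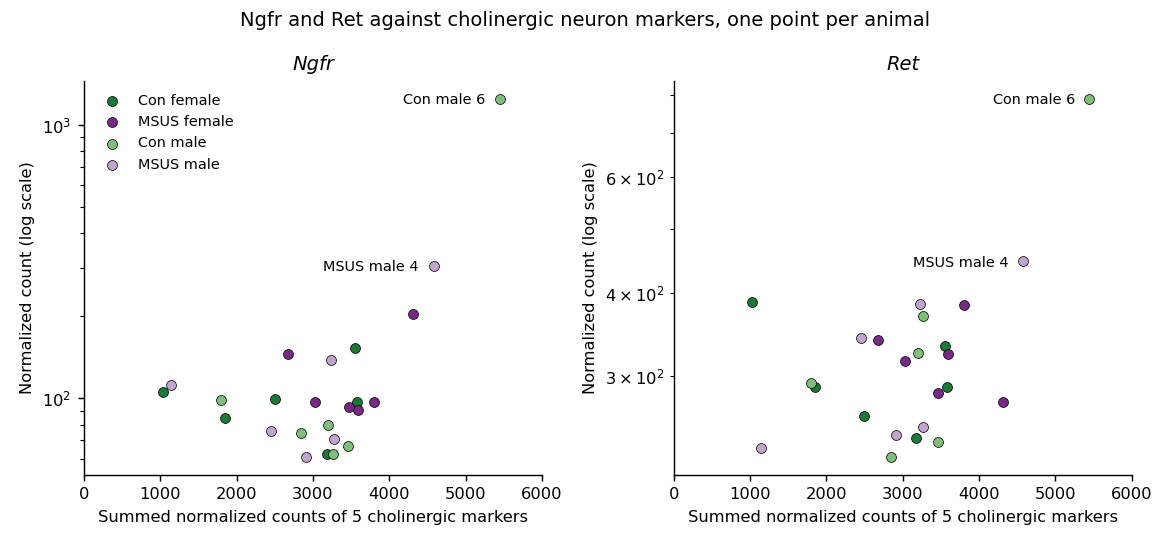
Normalized counts (log scale) of Ngfr (left) and Ret (right) in each of 24 animals against the summed normalized counts of 5 cholinergic markers, coloured by group. Con male 6 and MSUS male 4 have the highest marker sums, 5446 and 4579, and the highest counts of both genes.

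In males none of the 7 genes tested passed the threshold with edgeR, none had an unadjusted p under 0.05, none of the 6 for which DESeq2 gave an adjusted p passed (it gave none for Ngfr), and 0% of the 20691 genes tested passed with edgeR. None of the 8 genes passed with edgeR for the group-by-sex interaction either, with 0% of 21500 genes passing. With DESeq2 467 of the 21500 genes passed. When MSUS male 1 was left out, 3031 of 21617 genes passed with edgeR, and again none of the 8. For the interaction DESeq2 gave an adjusted p for 6 of the 8 genes (none for Ngfr and Ntf3), of which 0 passed. With edgeR Ntrk3 alone of the 8 was under 0.05 before adjustment, against 4031 of 21500 over all genes.

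Females and males were also compared within each condition. Among Con animals, 2.64% of 20641 genes passed with edgeR and none of the 7 genes tested, which was also so at an unadjusted p under 0.05. DESeq2 gave an adjusted p for 6 of them, again not for Ngfr, and 0 passed. The largest fitted differences, female over male, were -1.43 ± 0.80 on the log2 scale for Ngfr, which turned to 0.38 without Con male 6, and 1.08 ± 0.74 for Bdnf (edgeR, adjusted p = 0.376 and 0.468). The Bdnf value was 0.47 without Con female 3, 1.67 without Con male 5, 0.27 with the cortical marker score and 0.38 with the unassigned share as a covariate. Ret was at -0.31 ± 0.28 and the other 4 genes lay between -0.12 and 0.10. Among MSUS animals 0.135% of 20714 genes passed, and again none of the 7 did, with either tool or at an unadjusted p under 0.05. Bdnf was at -1.08 ± 0.93 there (edgeR, adjusted p = 0.721), and at -0.059 without MSUS male 6 and -2.02 without MSUS female 1. Gdnf was at 0.36 ± 0.23, and the remaining 5 genes lay between -0.07 and 0.12.

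**Figure D3:**
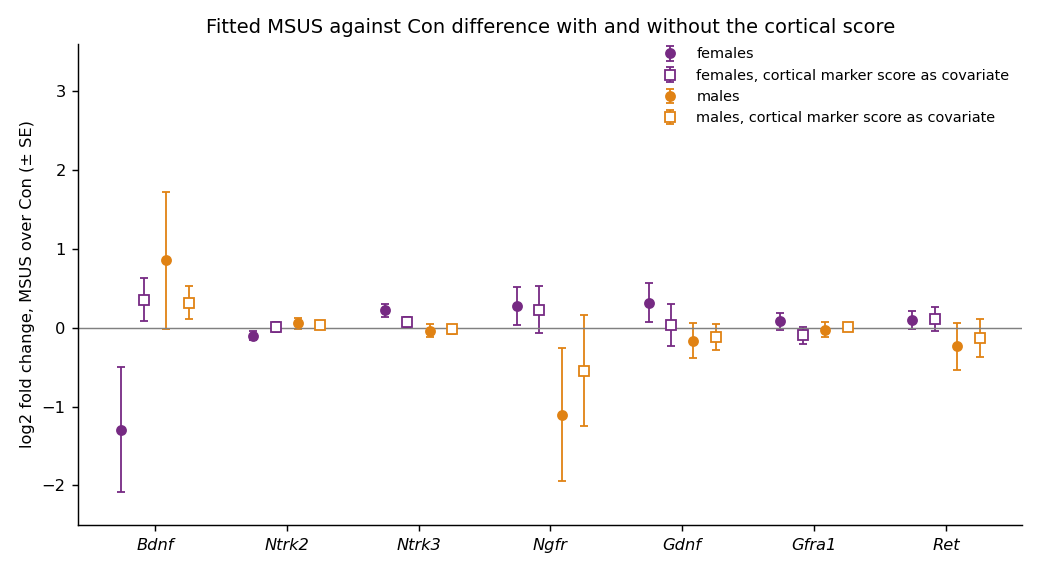
Log2 fold change of MSUS over Con, with SE, in the separate fits of 12 females (purple) and 12 males (orange), filled circles without and open squares with the cortical marker score as a covariate. Bdnf is at -1.29 and 0.36 in females, and Ntrk3 at 0.22 and 0.07, while Ntf3 was below the count filter.

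Across animals, several of these genes moved with the level of the cortical markers. The share of all genes that did so was not computed, so the relations are not shown to be particular to these genes. The cortical marker score, the mean log2 CPM of 9 genes of cortical excitatory neurons such as Slc17a7, lay between 3.16 and 5.73 in Con and 0.69 and 4.78 in MSUS females, and between 2.15 and 5.46 in Con and 1.91 and 5.83 in MSUS males. The groups overlapped. Bdnf rose with the score over the 24 animals with Pearson's r = 0.949 and Spearman's coefficient = 0.968 (permutation test with 100000 resamples, adjusted p = 5.33e-05 and 8e-05 over 16 relations). The r was 0.956 with group means removed, 0.953 without the 2 animals with the most extreme scores (MSUS female 5 and MSUS male 6), and 0.947 and 0.956 in libraries 1 to 12 and 13 to 24.

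Ntrk2 rose with the score as well, with r = 0.789 and Spearman's coefficient = 0.755 (permutation test, adjusted p = 5.33e-05 and 0.000213), and with r of 0.794 and 0.785 in the library sets. Ntrk3 went the other way, with r = -0.816 and Spearman's coefficient = -0.851 (permutation test, adjusted p = 5.33e-05 and 8e-05) and r of -0.801 and -0.847 in the sets. Gfra1 fell with the score with r = -0.712 and Spearman's coefficient = -0.677 (permutation test, adjusted p = 0.0002 and 0.00106), and Gdnf with r = -0.651 and Spearman's coefficient = -0.683 (permutation test, adjusted p = 0.0008 and 0.00106). Without the 2 most extreme animals r was 0.839 for Ntrk2, -0.798 for Ntrk3, -0.771 for Gfra1 and -0.702 for Gdnf, and in the library sets it was -0.629 and -0.808 for Gfra1 and -0.601 and -0.707 for Gdnf. The unadjusted p of 1e-05 behind the smallest of these values is the smallest that 100000 resamples can give.

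Ntf3 had r = 0.478 and Spearman's coefficient = 0.537 with the score (permutation test, adjusted p = 0.0370 and 0.0150), with r of 0.285 and 0.711 in the library sets and 0.645 without the 2 animals. The relations of Ret, at r = -0.361 and Spearman's coefficient = -0.264, and Ngfr, at r = -0.316 and Spearman's coefficient = -0.0765, did not pass (permutation test, adjusted p = 0.108 to 0.770). The score and the genes come from the same libraries and scaling, so that part of any relation is shared.

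With the score as a covariate, the female log2 fold change of Bdnf was 0.36 ± 0.27 in place of -1.29, and that of Gdnf 0.038. The score was lower at the median in MSUS than in Con females, so it and MSUS cannot be fully told apart in these fits. With the unassigned share as a covariate the Bdnf value was -2.88 ± 2.19. The relations with the share of unassigned read pairs were weaker. The r was 0.596 for Ntrk3, -0.560 for Ntrk2, -0.453 for Ntf3, -0.427 for Bdnf and 0.422 for Gdnf, and with group means removed they were 0.414, -0.486, -0.210, -0.239 and 0.351. In the library sets r was 0.617 and 0.628 for Ntrk3, -0.666 and -0.581 for Ntrk2, and -0.653 and -0.271 for Ntf3, and without MSUS male 1 and MSUS female 3 it was 0.549, -0.459 and -0.404. Spearman's coefficient was 0.662, -0.565 and -0.487 for these 3 genes (permutation test, adjusted p at most 0.0473 for both coefficients). For Bdnf it was -0.404 and for Gdnf 0.323 (permutation test, adjusted p = 0.0557 for both r, and 0.0830 and 0.180 for Spearman's coefficient). For Gfra1, Ret and Ngfr the adjusted p was at least 0.177.

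**Figure D4:**
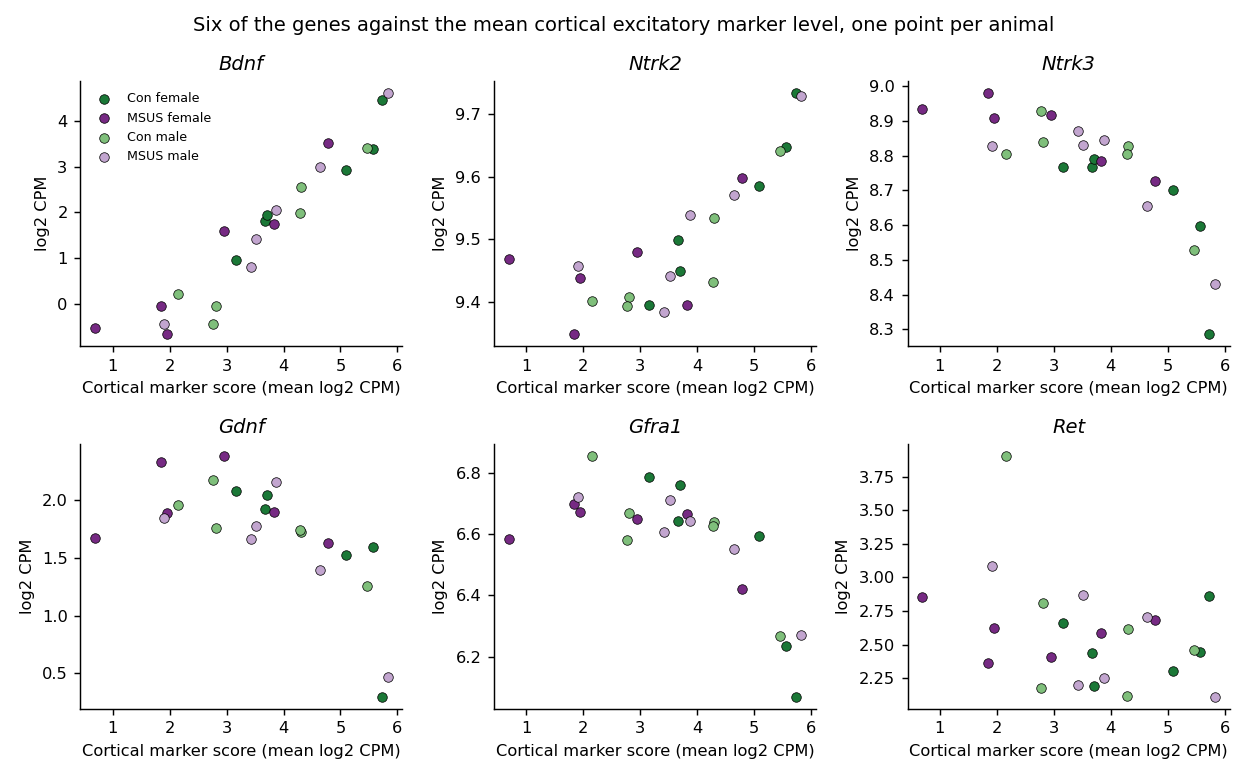
Log2 CPM of Bdnf, Ntrk2, Ntrk3, Gdnf, Gfra1 and Ret in each of 24 animals against the cortical marker score, coloured by group. Bdnf climbs along the whole axis (r = 0.949), Ntrk2 rises and Ntrk3, Gdnf and Gfra1 fall towards high scores, and Ret shows no clear course, with 1 Con male at the top.

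Each gene was also matched with the 3 genes whose log2 CPM followed it most closely over the 24 libraries, among 14306 genes with a mean of at least 100 counts. Bdnf was followed by Sstr3, Rspo3 and Vip, with r of 0.978 to 0.981, and Ntrk2 by Lrrc57, Enc1 and Lpgat1, with r of 0.951 to 0.953. For Ntrk3 they were Fam184b, Grik2 and Lrrc1, with r of 0.957 to 0.963, for Gdnf Syt6, Rgs8 and Wnt2, with r of 0.925 to 0.939, and for Gfra1 Gad1, Abat and Enox2, with r of 0.939 to 0.943. Gad1 encodes an enzyme of GABA synthesis and Abat an enzyme of GABA breakdown. Ngfr was closest to Lhfpl5, Sox6 and Grin2d, with r of 0.815 to 0.873, Ret to C530008M17Rik, Gpr165 and Sox6, with r of 0.854 to 0.860, and Ntf3 to Ddah2, Ccnd2 and Pcna, with r of 0.711 to 0.809. Ngfr and Ret correlated with each other at r = 0.785, and at 0.495 without Con male 6. Gdnf and Ntrk3 correlated at r = 0.892 and Bdnf and Ntrk3 at -0.837. These are descriptions over libraries that share the same scaling.

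The other genes of the pathway were taken from 5 lists with 88 genes, of which 84 could be tested. In females 1 was higher and 15 were lower in MSUS animals, with a median log2 fold change of -0.09 against 0.00 over all genes. Of all 20571 genes tested 25.1% passed, 2698 higher and 2458 lower. A pass in either direction was thus no more frequent among the 84 than among all genes. With the share of unassigned read pairs as a covariate 0 of the 84 passed, and 0 of all 20571 genes tested. Some differences shrank, such as that of Sdc3 from -0.21 to -0.094, and others grew with a wider SE, such as Pcsk2 from -0.26 ± 0.05 to -0.36 ± 0.11 and Rtn4r from -1.49 ± 0.53 to -2.22 ± 1.26. This share did not overlap between Con and MSUS females, so that it and MSUS cannot be told apart in this comparison.

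Of the other neurotrophins, their receptors and processing enzymes, 11 of 12 were tested, 0 were higher and 5 were lower, with a median log2 fold change of -0.26. Pcsk2, a protease that cuts prohormones, had 18237 to 21788 normalized counts in Con and 14590 to 17224 in MSUS females, without overlap, and a log2 fold change of -0.26 ± 0.05. Sort1, the sortilin receptor that binds proneurotrophins, fell by 0.29 ± 0.07, and the related sorting receptor Sorcs2 by 0.23 ± 0.05 (edgeR, adjusted p = 0.00887 to 0.0130 for these 3). Lingo1 and Rtn4r, which form a receptor complex with p75, were at -0.71 ± 0.22 and -1.49 ± 0.53 (edgeR, adjusted p = 0.0530 and 0.0767). With the cortical marker score as a covariate these 2 were at -0.19 and -0.25, Sort1 was at -0.17 and Sorcs2 at -0.15, and none of the 4 passed (edgeR, adjusted p = 0.130 to 0.657). Pcsk2 was at -0.17 and passed (edgeR, adjusted p = 0.0910). Ntf5, the neurotrophin-4 gene, had at most 4.21 normalized counts in any library and was not tested.

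Of the 42 adaptors and kinases downstream of Trk receptors and Ret, all 42 were tested, 0 were higher and 6 were lower in MSUS females, with a median of -0.07. The changes were small. The log2 fold change was -0.10 ± 0.03 for Map2k2, the MAP kinase kinase MEK2, -0.12 ± 0.04 for the kinase gene Rps6ka1, -0.25 ± 0.09 for the adaptor Dok5, -0.10 ± 0.04 for the adaptor Crkl and -0.08 ± 0.03 for Grb2, the adaptor that links receptors to Ras (edgeR, adjusted p = 0.0435 to 0.0785). With the cortical marker score as a covariate Map2k2, at -0.13, and Rps6ka1, at -0.16, passed (edgeR, adjusted p = 0.0732 and 0.0981), and Dok5, at -0.092, Crkl, at -0.060, and Grb2, at -0.075, did not (edgeR, adjusted p = 0.242 to 0.599).

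Of the 9 other GDNF-family ligands and receptors, 6 were tested, 0 were higher and 2 were lower. Sdc3, a heparan sulfate proteoglycan that binds GDNF, had 9686 to 11086 normalized counts in Con and 8194 to 9518 in MSUS females, without overlap, and a log2 fold change of -0.21 ± 0.04 (edgeR, adjusted p = 0.00920). Gfra4, a co-receptor of the family, was at -0.14 ± 0.05 (edgeR, adjusted p = 0.0602). Pspn, Gfra3 and Gfral were under the filter, with at most 3.89 normalized counts. Of 7 partners of p75, Ripk2, a kinase recruited to it, was higher at 0.26 ± 0.06 and Arhgdia lower at -0.22 ± 0.05 (edgeR, adjusted p = 0.0130 and 0.0141). With the cortical marker score as a covariate Sdc3, at -0.17, passed (edgeR, adjusted p = 0.0826), and Gfra4, Ripk2 and Arhgdia, at -0.13, 0.19 and -0.16, did not (edgeR, adjusted p = 0.133 to 0.232).

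Of 18 activity- and neurotrophin-responsive genes 1 passed in MSUS females, Spry2, an inhibitor of receptor tyrosine kinase signalling, which fell by 0.23 ± 0.07 (edgeR, adjusted p = 0.0408). With the cortical marker score as a covariate it was at -0.11 ± 0.07 and did not pass (edgeR, adjusted p = 0.384). In males 0 of the 84 genes passed with edgeR or DESeq2. At an unadjusted p under 0.05 the count was 1, against 191 of 20691 over all genes (edgeR). For the interaction 0 of 84 passed with either tool. At an unadjusted p under 0.05 there were 10 of the 84, against 4031 of 21500 over all genes (edgeR). The female decreases were therefore not shown to differ from the male values.

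Between Con females and Con males, 10 of the 18 activity- and neurotrophin-responsive genes were higher in females and 0 lower, with a median log2 fold change of 0.63 against 0.10 over the 84 genes of the 5 lists, and with 2.64% of all genes passing. Fos, an immediate early gene, had 311.5 to 1521 normalized counts in females and 190.4 to 427.4 in males and a log2 fold change of 1.75 ± 0.33 (edgeR, adjusted p = 0.0584). Arc, which encodes a synaptic immediate early protein, was at 1.24 ± 0.22, without overlap between 2942 to 8262 and 1787 to 2931 normalized counts (edgeR, adjusted p = 0.0562). Nr4a1, Egr4 and Egr1, which encode activity-induced transcription factors, were at 1.03 ± 0.19, 0.69 ± 0.10 and 0.68 ± 0.11 (edgeR, adjusted p = 0.0582, 0.0127 and 0.0348). These genes and their list were chosen with the direction known, and the other 5 that passed were Egr2, Fosb, Vgf, Spry2 and Junb, with log2 fold changes of 0.26 to 1.16. Bdnf, itself an activity-responsive gene, was at 1.08 ± 0.74 in the same animals and did not pass.

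The count of 10 changed with single animals, as did the count over all genes. Leaving out 1 animal gave between 1 and 11 genes, with 2 without Con female 1, Con female 4 or Con male 1, 4 without Con female 2, 5 without Con female 5 or Con male 4, and 1 without Con male 3. Over all genes 544 passed with all animals, and 44, 20, 37, 93, 51, 39 and 21 in these fits, in that order. With DESeq2 the count of the list was 14, where 1511 of 20641 genes passed. It was 4 with the cortical marker score and 0 with the unassigned share as a covariate, where 44 and 11 of 20641 genes passed. With the latter the log2 fold changes were 1.75 ± 0.65 for Fos, 1.39 ± 0.42 for Arc, 1.42 ± 0.34 for Nr4a1, 0.85 ± 0.19 for Egr4 and 0.85 ± 0.20 for Egr1, no smaller at 2 decimals than without it and with larger SE. In MSUS animals the same list had a median of 0.36, female over male, and 0 of 18 passed with edgeR. An unadjusted p under 0.05 was found for 8 of the 18, against 1511 of 20714 over all genes (edgeR). With DESeq2 5 of the 18 passed, against 167 of 20714 over all genes.

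**Figure D5:**
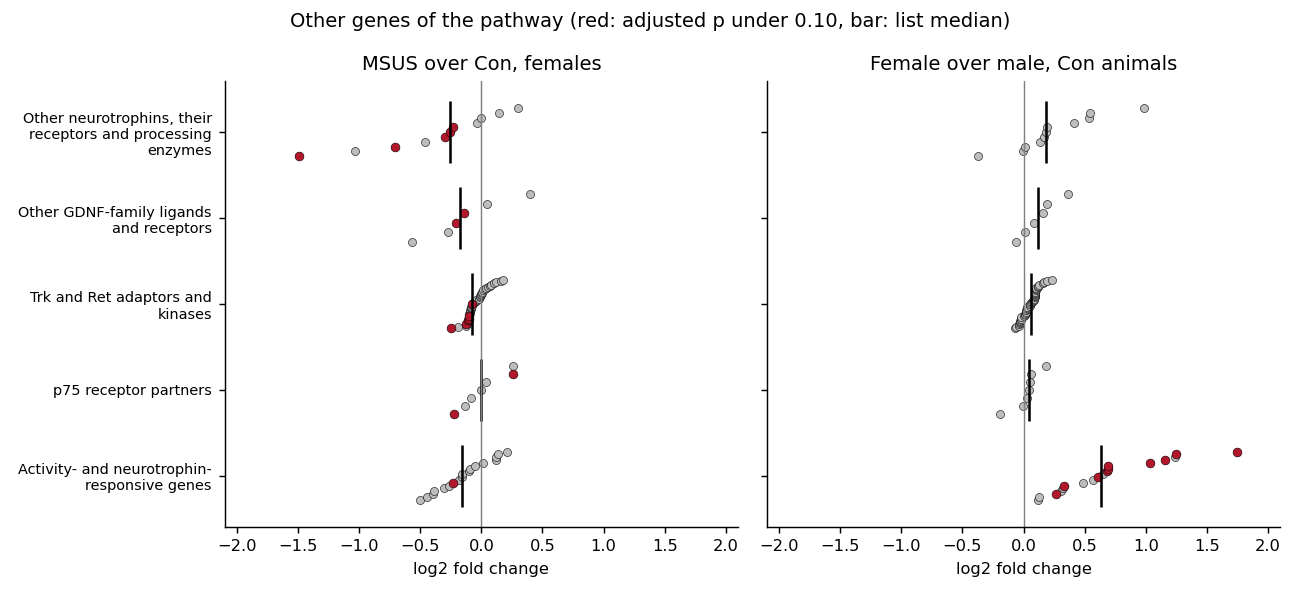
Log2 fold change of each tested gene in 5 lists, for MSUS over Con in females (left) and for female over male in Con animals (right), with genes past an adjusted p of 0.10 in red and a bar at the list median. On the left the red points lie mostly below 0, and on the right all 10 belong to the activity- and neurotrophin-responsive genes.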

How the data were processed

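RNA was counted in 24 libraries, 1 per animal. According to the study's methods and the labels, libraries were rRNA-depleted, sequenced as pairs and aligned to mm10 with STAR 2.6.1b and GENCODE M15. The authors deposited raw counts of uniquely mapped read pairs per gene in 3 columns (unstranded, and 1 for either strand), and the sense-strand counts were used. Unspliced RNA was not removed, pairs that overlap exons of more than 1 gene were left out by STAR, and the replicates may differ technically as well as biologically.

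Of 52636 gene IDs 52489 were found in GENCODE M21 (GRCm38). Low counts were removed with filterByExpr (minimum 10), libraries were scaled by TMM, and the robust quasi-likelihood F test of edgeR 4.0.16 in R 4.3.3 was applied, with Benjamini-Hochberg adjustment over all genes tested and a threshold of 0.10. Each pair of groups was fitted alone, and all 24 animals for the interaction. Normalized counts are counts divided by DESeq2 size factors. Log2 CPM used a prior count of 1. Other tools were DESeq2 1.42.0 and, in Python 3.11.15, scipy 1.17.1, pandas 2.3.3, numpy 2.4.6 and matplotlib 3.10.9. The procedure was tested on simulated counts.

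The 8 genes, the 5 pathway lists, the 11 marker lists and the tests were chosen with earlier results of these data known. From each pathway list, the genes past the threshold in females were named, at most 5 with the smallest p, with those under the filter. The genes named in the comparison of Con females with Con males, in the marker sums and in figures were named after their values were seen. A gene of the pathway lists is counted in them and not reported by name here.

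Each result was recomputed with each animal left out, unstranded counts, no filter, a filter of 10 or more counts in all animals, DESeq2, DESeq2 size factors within edgeR, a replicate block, a fit of all animals, library set (numbers 1 to 12 against 13 to 24), unassigned share or cortical marker score as a covariate, an adjusted p under 0.05, library totals without TMM (levels) and removal of group means (likeness). Alternatives for the list in Con animals, and each animal left out for the pathway genes, were added after the data were seen. The deviations of same-numbered animals from their group means correlated at -0.36 to 0.38 over the 4 pairs of groups. Between MSUS males and MSUS females the same number was the best match for 3 of 6. In the other pairs of groups it was so for 0 or 1 of 6. The numbers were not taken as pairs in the main fits. None of the 60 within-group library pairs agreed within sampling noise. The stage of the estrous cycle was not used, because it is filled in for some males and empty for some females. Intervals for counts are not given, and counts of a few read pairs are limited by counting error.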

Additional observations from a re-analysis of the deposited data

Results flagged for a closer look

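Each of the 32 sets of 6 normalized counts (8 genes in 4 groups) was tested with Dixon's ratio for a sample far from the others, and about 1 set in 20 exceeds its critical value by chance. Of the 5 sets that did, 2 concerned Bdnf, with 603.2 normalized counts in MSUS female 1 (ratio 0.750) and 1317 in MSUS male 6 (ratio 0.700). Ngfr was at 1243 in Con male 6 (ratio 0.970) and at 304.5 in MSUS male 4 (ratio 0.683). Ret was at 788.6 in Con male 6 (ratio 0.745). The cortical marker score of MSUS female 1 was 4.78, the highest of the MSUS females, and that of MSUS male 6 was 5.83, the highest of all animals. Con male 6 and MSUS male 4 had the highest sums of cholinergic markers. The part of these cells in the 5 values was not tested. No gene of the 8 had an MSUS effect that differed between the sexes by the interaction test.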

How the results depend on the processing

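In females the count of 1 gene past the threshold, Ntrk3, was 0 without a filter, with the replicate number as a block, with the unassigned share or the cortical marker score as a covariate and at an adjusted p under 0.05, and it ran from 0 to 3, Ntf3 included, with 1 animal left out. Ntrk3 was then at 0.22, 0.23, 0.25 and 0.07 in the first 4, and its adjusted p over all alternatives ran from 0.0414 to 0.760. In the 4 other comparisons 0 of the genes that each alternative could test passed. The count of pathway genes past the threshold in females, 16, was 8 without a filter, 10 with the replicate block (9 of them among the 16), 10 in the fit of all animals, 0 with the unassigned share, 8 with the cortical score (5 among the 16) and 8 at an adjusted p under 0.05, and 8 to 20 with 1 animal left out (9, 8 and 8 without MSUS female 2, 3 and 5). That count was higher, at 19, with DESeq2 and with library set as a covariate, and at 24 of 85 tested with unstranded counts. The count over all genes in females, 5156 of 20571, moved as well. It was 3667 of 36411 without a filter, 3800 with the replicate block and 4087 of 21500 in the fit of all animals. With the unassigned share it was 0, with the cortical score 1699 and at an adjusted p under 0.05 3126. With DESeq2 it was 5786, with library set 5170 and with unstranded counts 6823 of 23506. With 1 animal left out it ran from 3102 to 5737. The count of activity- and neurotrophin-responsive genes in Con animals, 10, was 3 with the replicate block, 3 in the fit of all animals, 0 with the unassigned share, 4 with the cortical score and 2 at an adjusted p under 0.05, and 1 to 11 with 1 animal left out. With DESeq2 it was 14. The count over all genes in Con animals, 544, was 12, 62, 11, 44 and 32 in the first 5 of these alternatives.

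None of the log2 fold changes that changed sign had passed the threshold. With the cortical score, female MSUS over Con values became 0.36 for Bdnf, 0.012 for Ntrk2 and -0.095 for Gfra1, and the male value of Gfra1 0.0075. Female over male became 0.12 for Gdnf and 0.068 for Gfra1 in Con animals and 0.40 for Bdnf, -0.050 for Gfra1 and -0.094 for Ret in MSUS animals, and the interaction 0.12 for Bdnf and -0.11 for Gfra1. With the unassigned share, Ngfr in females became -0.36, Ntrk3, Gdnf and Gfra1 in Con animals 0.015, 0.19 and 0.019, Bdnf and Gfra1 in MSUS animals 0.094 and -0.016, and Gfra1 in the interaction -0.023. With the replicate block Ngfr in MSUS animals became 0.074, and without regard to strand Ret there became -0.00033. With 1 animal left out, male values ran from -0.16 to 1.47 for Bdnf, -0.084 to 0.015 for Ntrk3, -1.57 to 0.73 for Ngfr, -0.080 to 0.033 for Gfra1 and -0.36 to 0.13 for Ret. In Con animals they ran from -1.65 to 0.38 for Ngfr, -0.21 to 0.046 for Gdnf and -0.42 to 0.037 for Ret, in MSUS animals from -0.28 to 0.40 for Ngfr, -0.028 to 0.067 for Gfra1 and -0.066 to 0.14 for Ret, and in the interaction from -0.47 to 1.82 for Ngfr and -0.050 to 0.44 for Ret. The cause was not tested. Of 351 values under the other alternatives 327 kept their sign and their side of the threshold, and of 528 with 1 animal left out 505 did. The order of levels was the same with plain library totals. Depth limits Ntf3, with at most 14 read pairs in a library.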
